A study of Mus musculus with 10 samples.

Results

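A set of 10 genes of cytokine signaling was examined in germinal center B cells that lacked or kept ZBTB38, a zinc finger protein that binds methylated DNA. They were chosen by gene symbol as the receptor chains Il21r, Il4ra, Il2rg, Il10ra and Ifngr1, the Janus kinases Jak1 and Jak3, and the transcription factors Stat3, Stat6 and Stat5b. All 10 of the 10 genes were among the 22380 genes quantified, and all 10 passed the filter on low counts in every comparison. RNA was sequenced from NP-binding germinal center B cells (GL7+ IgD-) sorted 2 weeks after immunization with NP-OVA in alhydrogel, with 1 library per mouse. The 2 ZBTB38 WT mice were Zbtb38 fl/fl without Cre, the 2 ZBTB38 HET mice were Zbtb38 fl/+ with Vav-Cre, and the 6 ZBTB38 KO mice were Zbtb38 fl/fl with Vav-Cre. HET and KO mice thus both carried Cre, which is driven by the Vav promoter mainly in hematopoietic cells, so T cells and myeloid cells of these mice could carry the deletion too. The floxed allele came from a single founder and controls were littermates, but the labels do not say which mice shared a litter. The comparisons asked whether the genes that receive and pass on cytokine signals in germinal center B cells were present at other levels when ZBTB38 was deleted.

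T follicular helper cells deliver IL-21 and IL-4 to B cells in the germinal center. IL-21 binds a receptor made of IL-21R and the common gamma chain (encoded by Il2rg), and IL-4 binds IL-4R alpha paired with the same gamma chain. These chains have no kinase of their own: JAK1 sits on IL-21R and IL-4R alpha and JAK3 on the gamma chain, and once activated they phosphorylate the receptor and the STAT proteins that dock there. IL-21 acts mainly through STAT3 and IL-4 mainly through STAT6, STAT5B is the usual partner of IL-2 family receptors, and IL-10R alpha and the interferon gamma receptor also use JAK1. Phosphorylated STATs enter the nucleus and bind DNA, and IL-21 and STAT3 signaling is known to sustain BCL6 in germinal center B cells.

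In GRCm38, Il4ra (chromosome 7, 125552120 to 125579474) and Il21r (chromosome 7, 125603429 to 125633570) lie next to each other on the plus strand. Stat5b (chromosome 11, 100780731 to 100850724) and Stat3 (chromosome 11, 100885098 to 100939540) lie close together on the minus strand. Il2rg lies on the X chromosome from 101264378 to 101268255 on the minus strand, and the other 5 genes lie on chromosomes 4 (Jak1), 8 (Jak3), 9 (Il10ra) and 10 (Ifngr1 and Stat6). Class I cytokine receptors carry the WSXWS box, 5 residues near the membrane that help the chain to fold. A search of the coding sequences, in frame on the coding strand, found 1 such box in each of Il21r, Il4ra and Il2rg, and none in Il10ra and Ifngr1, which encode class II receptors. The 15 bases of the box are shown because they are the same in Il21r and Il4ra. They begin at coding base 640 in Il21r, 637 in Il4ra and 712 in Il2rg, and are in capitals within 33 coding bases of the transcripts ENSMUST00000033000.7, ENSMUST00000033004.7 and ENSMUST00000033664.13:
Il21r: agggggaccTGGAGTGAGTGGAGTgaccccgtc
Il4ra: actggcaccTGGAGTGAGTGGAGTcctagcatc
Il2rg: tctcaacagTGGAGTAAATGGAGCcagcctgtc

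Il4ra and Il21r were each quantified as a transcript with the full coding sequence and a transcript that parts from it shortly after the box. The full Il4ra transcript, ENSMUST00000033004.7, has 2433 coding bases. The other, ENSMUST00000206846.1, shares the first 673, up to the end of exon 7 at position 125571590, and then reads into an exon of its own that starts at 125571934 instead of the exon at 125572851. It stops after 20 further bases, which leaves 230 codons and no sequence for the part that spans the membrane. A secreted form of mouse IL-4R alpha made by such splicing is known. The annotation used here gives this transcript the class nonsense-mediated decay. The sequences around the point where the 2 forms part are shown with the bases that follow it in capitals:
Il4ra full: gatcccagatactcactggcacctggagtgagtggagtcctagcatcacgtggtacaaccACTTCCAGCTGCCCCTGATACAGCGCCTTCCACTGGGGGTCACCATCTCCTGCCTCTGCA
Il4ra short: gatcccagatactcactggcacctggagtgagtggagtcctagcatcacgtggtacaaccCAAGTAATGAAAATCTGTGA

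The short Il4ra transcript was the leading one in every library. It held 77.3% and 69.3% of the Il4ra TPM in the ZBTB38 WT libraries, 71.2% and 70.6% in the HET libraries, and between 67.7% and 75.1% in the 6 KO libraries. The full transcript held between 21.7% and 29.9% of Il4ra TPM over the 10 libraries, or 10.4 to 26.7 TPM. By estimated counts, which are not divided by length, the short form held 65.8% on average. The shares of the 3 genotypes overlapped. The mean share of the short form was 72.1% ± 3.56 in the 4 control libraries (SD, WT and HET) and 72.6% ± 2.74 in the 6 KO libraries (two-sided exact permutation test, Benjamini-Hochberg adjusted over the 10 genes, adjusted p = 0.914). This split between the 2 forms was estimated by Salmon, which used the bases that tell them apart: the annotated transcripts share 3582 bases, 114 occur only in the short form, and 1674 occur only in the full form, of which 1507 lie past the 3' end of the short form.

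Il21r showed the opposite order. Its full transcript, ENSMUST00000033000.7 with 1590 coding bases, led in every library with 68.8% to 75.0% of Il21r TPM. The second, ENSMUST00000206103.1, shares 685 coding bases up to position 125629043, skips the exon that begins at 125629738, and continues at 125630705 for 122 coding bases to a stop, which gives 268 codons. It held 17.2% to 23.8% of Il21r TPM, or 28.6 to 64.8 TPM, and its mean share of 19.6% lies just under the 20% set for naming a transcript, so that it was chosen after its values were seen. The mean share of the full form was 72.4% ± 2.68 in the 4 control libraries and 72.6% ± 1.1 in the 6 KO libraries (exact permutation test, adjusted p = 0.914). The bases after the point where the forms part are in capitals:
Il21r full: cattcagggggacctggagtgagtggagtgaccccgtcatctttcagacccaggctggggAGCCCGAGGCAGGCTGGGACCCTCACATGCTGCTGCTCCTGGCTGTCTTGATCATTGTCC
Il21r short: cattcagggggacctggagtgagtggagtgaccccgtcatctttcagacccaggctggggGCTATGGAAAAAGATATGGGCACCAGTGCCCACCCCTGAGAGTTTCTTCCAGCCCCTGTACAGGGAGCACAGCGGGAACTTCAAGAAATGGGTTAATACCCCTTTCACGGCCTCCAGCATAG

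Stat3 was present in forms whose coding sequences differ by 1 codon. ENSMUST00000127638.7 has 2313 coding bases and held 72.1% to 77.5% of Stat3 TPM over the 10 libraries. ENSMUST00000092671.11 has 2310 coding bases and held 19.0% to 26.0%. The 3 coding bases that the leading form has and ENSMUST00000092671.11 lacks are in capitals:
Stat3 longer: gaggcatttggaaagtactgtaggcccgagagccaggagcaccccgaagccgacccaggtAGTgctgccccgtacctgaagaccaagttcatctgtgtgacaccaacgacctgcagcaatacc
Stat3 shorter: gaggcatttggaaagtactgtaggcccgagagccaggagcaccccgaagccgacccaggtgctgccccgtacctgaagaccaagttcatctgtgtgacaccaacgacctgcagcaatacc

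Another Stat3 transcript, ENSMUST00000103114.7, ends its coding sequence after 2169 bases and corresponds to the short STAT3 form that lacks the C-terminal activation domain. It was at 1.09 to 2.52 TPM, or 1.66% to 3.89% of Stat3 TPM, and was also chosen after its values were seen. Jak3 was divided between ENSMUST00000051995.13, with 43.1% to 67.0% of TPM, and ENSMUST00000110012.1, with 33.0% to 56.8%, which have the same coding sequence. The 2 transcripts of Stat5b also have the same coding sequence, and the leading one held 72.1% to 92.2%. In Il2rg, Ifngr1, Jak1 and Stat6 the leading transcript held at least 88.7% of TPM in every library, and in Il10ra it held 73.9% to 96.8%. Over all 10 genes, the share of the leading transcript differed between controls and KO in 0 genes (exact permutation tests, adjusted p = 0.914 for each). The lowest unadjusted p was 0.262, for Il2rg, at 89.7% ± 0.838 in 4 control libraries and 90.6% ± 1.15 in 6 KO libraries (two-sided exact permutation test).

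**Figure D1:**
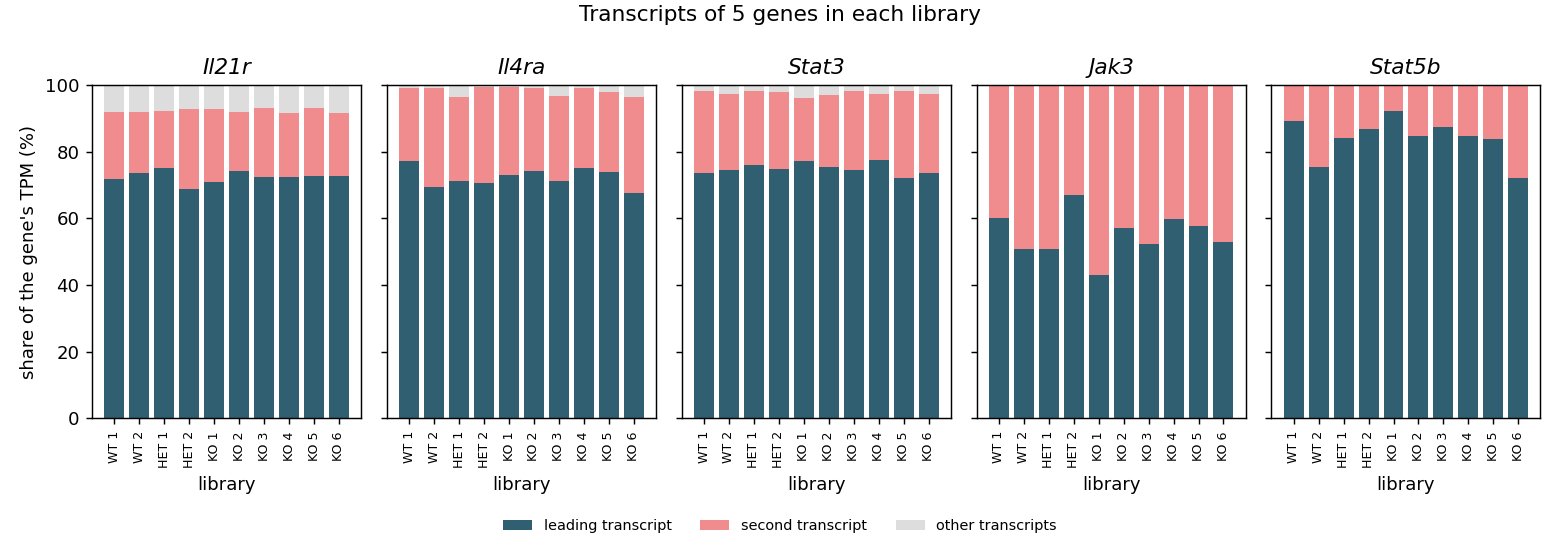
Share of a gene's TPM in percent (vertical axes) held by its leading transcript, its second transcript and all others in each of the 10 libraries (horizontal axes) for Il21r, Il4ra, Stat3, Jak3 and Stat5b. The short Il4ra transcript stays between 67.7% and 77.3% in every library, while the leading Jak3 transcript ranges from 43.1% to 67.0%.

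The libraries held between 26612431 and 41059082 estimated counts, and the factors of the TMM normalization lay between 0.93 and 1.06. Zbtb38 was at 164 and 152 CPM (estimated counts scaled by library size and TMM factor) in ZBTB38 WT and 117 and 106 CPM in HET. In KO it lay between 18.5 and 50.1 CPM with a median of 30.4 CPM. These values sum all transcripts of the gene, including exons outside the floxed one. The study reported that reads within the floxed exon were completely lost in KO, and reads per exon were not examined here. The log2 fold changes of Zbtb38 over KO were 2.31 for WT and 2.08 for WT plus HET (edgeR's quasi-likelihood test, Benjamini-Hochberg adjusted p = 0.0734 and 0.0104). Zbtb38 missed the threshold of 0.1 for HET over KO (log2 fold change 1.82, edgeR adjusted p = 0.128). It also missed it for WT over HET (log2 fold change 0.49, edgeR adjusted p = 0.873). The 6 B cell markers, among them Cd79a and Cd79b, summed to 6152 to 8196 TPM in every library, and the 8 germinal center B cell markers, among them Bcl6 and Fas, to 1232 to 2489 TPM, and no marker of either list was at 0 in any library. The 15 T cell markers summed to 393 and 444 TPM in WT, 229 and 252 TPM in HET and 275 to 357 TPM in KO, and the 10 myeloid markers to 712 and 580 TPM in WT, 99.3 and 104 TPM in HET and 95.9 to 998 TPM in KO. The 8 naive B cell markers summed to 765 and 868 TPM in WT, 463 and 480 TPM in HET and 429 to 976 TPM in KO. KO replicate 6 had both the lowest germinal center sum (1232 TPM) and the highest naive B cell sum (976 TPM) of all libraries. KO replicate 1 had the lowest naive B cell sum (429 TPM), with a germinal center sum of 2369 TPM. In bulk samples, fewer cells of a type and less RNA per cell cannot be told apart. T cells and macrophages also express several of the 10 genes, and their part in the values was not tested.

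Genes with long transcripts were lower in several KO libraries. The measure used was the median log2 level over 959 genes whose transcripts had at least 4000 bases on average, minus the median over 2087 genes with at most 1500, each gene relative to its mean over the libraries. It was 0.21 and 0.14 in ZBTB38 WT, 0.30 and 0.41 in HET, and -0.76, 0.17, -0.28, 0.19, -0.03 and -0.38 in KO replicates 1 to 6. KO replicates 1 and 6 were thus the lowest, and the HET libraries the highest. Of the 10 genes, Stat5b had the longest transcripts (5086 bases, weighted by TPM), followed by Jak1 (4569), Stat3 (4190) and Il4ra (4045), and Il2rg the shortest (1565).

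Levels are compared between genes in TPM, which allows for transcript length. Il2rg, the chain shared by the receptors for IL-2, IL-4, IL-7, IL-9, IL-15 and IL-21, was highest with a mean of 346 ± 47.8 TPM (SD, n = 10 libraries). Il21r followed with 231 ± 43.7 TPM, Jak1 with 170 ± 34.3 TPM and Ifngr1 with 113 ± 12.4 TPM. Each of these genes was above the next in 10 of 10 libraries. Stat3 (77.1 ± 13.3 TPM), Stat6 (75.5 ± 20.95 TPM) and Il4ra (74.1 ± 17.5 TPM) lay together, with differences smaller than the spread between libraries. The Il4ra value sums its transcripts, with a mean of 53.7 TPM for the short one and 19.1 TPM for the full one. The log2 difference was 0.07 ± 0.315 between Stat3 and Stat6 and 0.01 ± 0.319 between Stat6 and Il4ra (two-sided exact sign-flip permutation tests over 10 libraries, Benjamini-Hochberg adjusted p = 0.613 and 0.949). Jak3 (29.3 ± 6.41 TPM) and Stat5b (28.6 ± 10.05 TPM) did not differ beyond their spread either (exact permutation test, adjusted p = 0.613). Il10ra, at 19.9 ± 6.22 TPM, was the lowest, below Stat5b in 9 of 10 libraries (exact permutation test, adjusted p = 0.0264). For the other 5 neighbouring pairs, of 9 tested, the exact permutation test gave an adjusted p of 0.00352, from the smallest p that 10 libraries allow (0.00195).

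**Figure D2:**
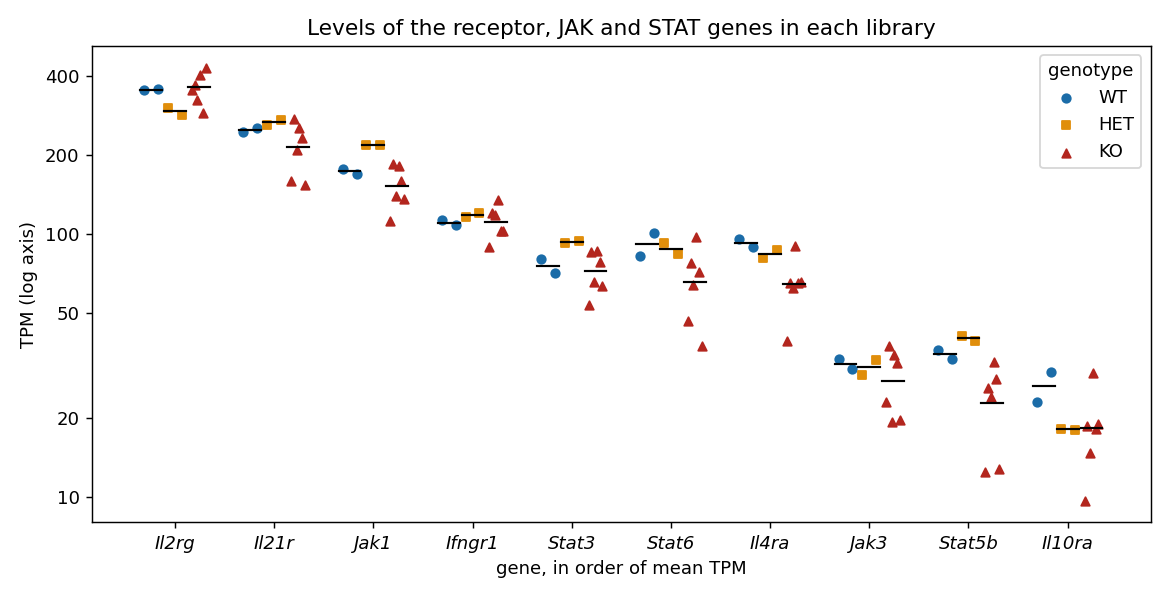
TPM on a log axis (vertical) for each of the 10 genes in order of mean TPM (horizontal), with 1 point per library by genotype and a bar at the mean of each genotype. Stat5b is the gene whose 6 KO libraries, at 12.5 to 32.6 TPM, all lie below the 4 control libraries, at 33.5 to 41.1 TPM.

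Il4ra, the chain that binds IL-4, was at 268 and 250 CPM in ZBTB38 WT and at 226 and 247 CPM in HET. In KO it lay between 143 and 241 CPM with a median of 191 CPM. In CPM, both WT libraries lay above all 6 KO libraries, while the HET libraries overlapped with KO. WT over KO gave a log2 fold change of 0.41 (SE 0.174, 95% interval 0.03 to 0.80, edgeR adjusted p = 0.999). It was 0.36 for WT plus HET over KO (SE 0.129, edgeR adjusted p = 0.744). The adjusted p missed the threshold of 0.1 in both comparisons.

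Il21r, the private chain of the IL-21 receptor, was at 388 and 389 CPM in WT, 417 and 423 CPM in HET, and between 284 and 415 CPM in KO with a median of 373 CPM. In CPM, the HET libraries lay above every KO library and the WT libraries did not, since KO replicates 2 and 5 reached 415 and 392 CPM. Over KO, the log2 fold change was 0.10 for WT (SE 0.152, 95% interval -0.24 to 0.44) and 0.16 for WT plus HET (SE 0.111, 95% interval -0.08 to 0.40), with edgeR adjusted p-values of 0.999 and 0.754. KO replicates 6 and 1 were the lowest (284 and 323 CPM), and without them these were -0.0086 and 0.045.

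Il2rg was at 347 and 336 CPM in WT, 298 and 278 CPM in HET, and between 303 and 501 CPM in KO with a median of 366 CPM. Of the 5 receptor chains chosen here, it was the only one with both HET libraries below every KO library in CPM. Its 2 highest CPM values were in KO replicates 6 and 1. Over KO, the log2 fold change was -0.31 for WT plus HET (SE 0.141, edgeR adjusted p = 0.744) and -0.43 for HET (SE 0.179, edgeR adjusted p = 0.452). Without KO replicates 1 and 6 that for WT plus HET was -0.14. Il2rg is X-linked, and the 4 Y-linked genes measured summed to 110 and 156 TPM in WT, to 0.64 and 0.487 TPM in HET, to 88.8 to 145 TPM in KO replicates 1, 2 and 5 and to 0.917 to 1.77 TPM in KO replicates 3, 4 and 6. Between WT and HET, genotype and the sex of the mice therefore cannot be told apart. Il2rg was at 443, 346 and 303 CPM in the first 3 of these KO libraries and at 350, 381 and 501 CPM in the other 3, which overlap.

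Il10ra, the ligand-binding chain of the IL-10 receptor, was at 55.3 and 69.4 CPM in WT, 44.1 and 42.6 CPM in HET, and between 29.8 and 68.0 CPM in KO with a median of 44.6 CPM. Its HET libraries fell inside the range of KO. WT over KO gave a log2 fold change of 0.42 (SE 0.262, 95% interval -0.16 to 1.00, edgeR adjusted p = 0.999), and that of WT over HET was 0.51 (SE 0.312, edgeR adjusted p = 0.826). Without WT replicate 2 they were 0.24 and 0.33. The myeloid markers given above were also higher in WT than in HET, and macrophages express Il10ra, and their part in these values was not tested.

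Ifngr1, the ligand-binding chain of the interferon gamma receptor, was the steadiest of the 10 genes, at 151 and 141 CPM in WT, 157 CPM in both HET libraries, and between 148 and 174 CPM in KO with a median of 160 CPM. Both control genotypes overlapped with KO, and the WT values lay below those of HET. The log2 fold change of WT plus HET over KO was -0.09 (SE 0.0896, 95% interval -0.28 to 0.11, edgeR adjusted p = 0.827), so that the interval spans 0.822-fold to 1.08-fold.

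Jak1, the kinase that serves all 5 receptor chains' complexes, was at 571 and 518 CPM in WT, 718 and 712 CPM in HET, and between 462 and 557 CPM in KO with a median of 525 CPM. The HET libraries stood above all other libraries, and WT overlapped with KO. HET over KO gave a log2 fold change of 0.47 (SE 0.107, 95% interval 0.24 to 0.70), and WT over HET one of -0.41 (SE 0.135). Neither passed after adjustment over all genes in edgeR (adjusted p = 0.255 and 0.709), but Jak1 was the one gene of the 10 called by another fit. DESeq2 gave an adjusted p of 0.00101 for HET over KO, where it called 3.19% of all genes, and 0.0969 for WT against HET, where it called 0.871%. An edgeR fit of only the 2 WT and 2 HET libraries gave an adjusted p of 0.0851 and called 3.96% of all genes. The HET libraries were also the highest in the level of genes with long transcripts (0.30 and 0.41), Jak1 transcripts average 4569 bases, and the part of transcript length was not tested. The log2 fold change of WT over KO was 0.06 (SE 0.121, 95% interval -0.20 to 0.33). Jak3, the kinase bound to the common gamma chain, was at 91.1 and 81.0 CPM in WT, 79.9 and 89.6 CPM in HET, and between 57.9 and 97.3 CPM in KO with a median of 84.6 CPM. Every control value of Jak3 lay inside the KO range, with a log2 fold change of 0.09 for WT plus HET over KO (SE 0.152, 95% interval -0.24 to 0.42, edgeR adjusted p = 0.909) and of 0.0021 without KO replicate 3.

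Stat5b, a STAT that IL-2 family cytokines activate, was at 130 and 117 CPM in WT, 149 and 139 CPM in HET, and at 57.1, 89.2, 95.4, 111, 107 and 53.4 CPM in KO replicates 1 to 6. All 4 control libraries lay above all 6 KO libraries, which held for no other of the 10 genes. The log2 fold change of WT plus HET over KO was 0.64 (SE 0.2, 95% interval 0.20 to 1.07, 1.56-fold, edgeR adjusted p = 0.744), and that of HET over KO was 0.75 (SE 0.25, edgeR adjusted p = 0.376). KO replicates 1 and 6, the lowest for Stat5b, were also the lowest for genes with long transcripts. These 2 libraries also lay at the ends of the naive B cell marker sums given above, KO replicate 1 lowest and KO replicate 6 highest. Without them the log2 fold change of WT plus HET over KO was 0.39. The parts of transcript length and of cell makeup in it were not tested. Stat5b also lies near its paralog Stat5a, whose coding sequence is 88.8% identical and shares 35.9% of its stretches of 31 bases, so that reads could be divided between them.

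Stat3, which IL-21 and IL-10 activate, was at 234 and 202 CPM in WT, 273 and 271 CPM in HET, and between 206 and 244 CPM in KO with a median of 226 CPM. As for Jak1, the HET libraries lay above every KO library and both WT libraries. The log2 fold change was 0.27 for HET over KO (SE 0.116, edgeR adjusted p = 0.465) and -0.33 for WT over HET (SE 0.144, edgeR adjusted p = 0.767). It was -0.06 for WT over KO (SE 0.128, 95% interval -0.35 to 0.22), 0.03 without WT replicate 2, and 0.09 on log2(TPM + 1). Stat6, which IL-4 activates, was at 217 and 257 CPM in WT, 244 and 213 CPM in HET, and between 114 and 242 CPM in KO with a median of 189 CPM. Stat6 had its lowest values in KO replicates 6 and 1 (114 and 157 CPM), and the groups overlapped through KO replicate 4. Its log2 fold change was 0.37 for WT over KO (SE 0.226, edgeR adjusted p = 0.999) and 0.35 for WT plus HET over KO (SE 0.167, 95% interval -0.01 to 0.71, edgeR adjusted p = 0.744). Without KO replicates 1 and 6 these were 0.20 and 0.17, and without WT replicate 2 the first was 0.24.

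**Figure D3:**
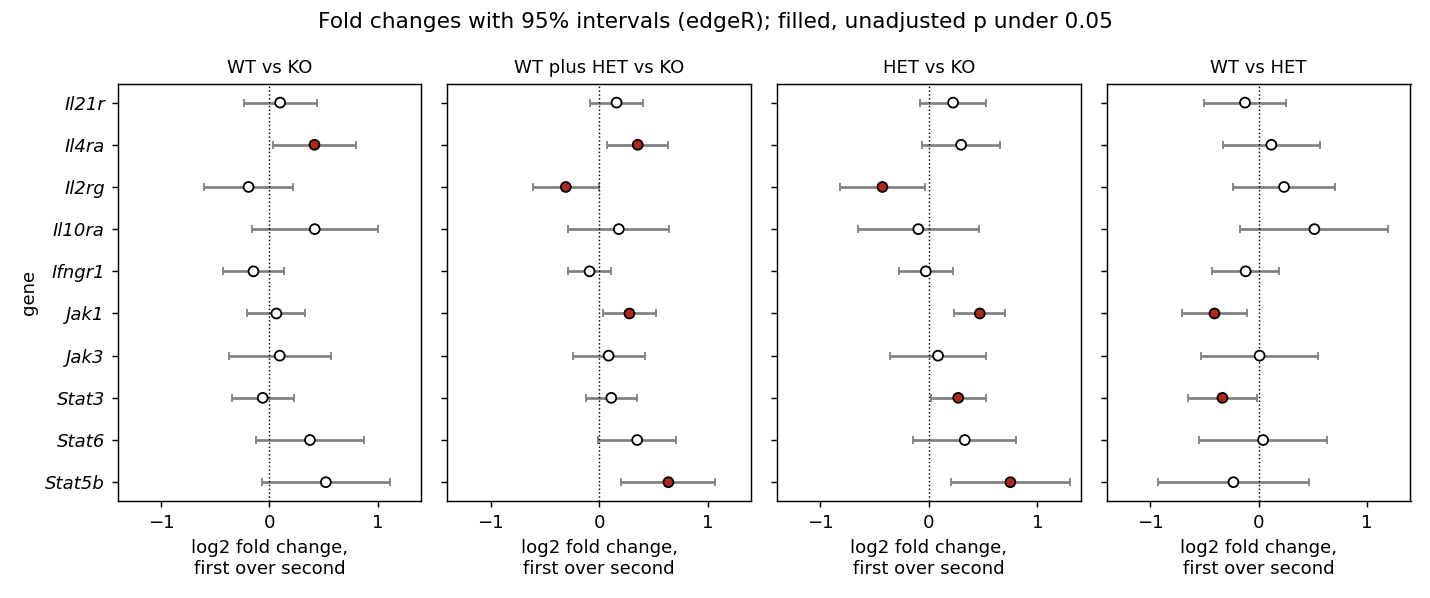
Log2 fold changes of the first group over the second with 95% intervals (horizontal) for each of the 10 genes (vertical) in the 4 comparisons, from edgeR on gene counts. Filled points have an unadjusted p under 0.05, which holds for 1 gene between WT and KO and for 4 between WT plus HET and KO, and no point passes after adjustment.

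Counted over the 10 genes, none was called in any of the 4 comparisons at an edgeR adjusted p under 0.1, where 0.00704% of 14203 genes were called for WT against KO, 0.00749% of 13347 for WT plus HET against KO, and 0.00697% of 14354 for both HET against KO and WT against HET, which is 1 gene each time. At an unadjusted edgeR p under 0.05, Il4ra alone passed for WT against KO (background 2.19%). For WT plus HET against KO, Il4ra, Jak1 and Stat5b were higher and Il2rg was lower in controls (4 of 10, background 6.3%). For HET against KO, Jak1, Stat3 and Stat5b were higher and Il2rg lower in HET (4 of 10, background 10.2%). For WT against HET, Jak1 and Stat3 were lower in WT (2 of 10, background 6.42%).

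The groups were also checked for overlap in CPM. Il4ra and Stat5b were higher in both WT libraries than in all KO libraries (2 of 10, background 4.17% of genes higher), and 0 genes were lower (background 2.45%). Stat5b was higher in all 4 controls (1 of 10, background 1.06%), and 0 were lower (background 0.502%). For HET, Il21r, Jak1, Stat3 and Stat5b were higher than in all KO libraries (4 of 10, background 8.1%) and Il2rg was lower (1 of 10, background 5.82%). In TPM, some of these separations did not hold. For Il4ra, WT replicate 2 was at 89.2 TPM and KO replicate 4 at 89.8 TPM. For Il21r, the HET libraries were at 260 and 272 TPM and KO replicate 2 at 274 TPM. For Il2rg, HET replicate 1 was at 302 TPM and KO replicate 5 at 288 TPM. Those of Stat5b, and of Jak1 and Stat3 for HET, held in TPM too. The median log2 fold change of the 10 genes over KO was 0.10 for WT, 0.17 for WT plus HET and 0.25 for HET, beside -0.01, -0.02 and -0.07 over all genes tested. These 3 comparisons share the 6 KO libraries, and the first 2 also share the WT libraries.

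**Figure D4:**
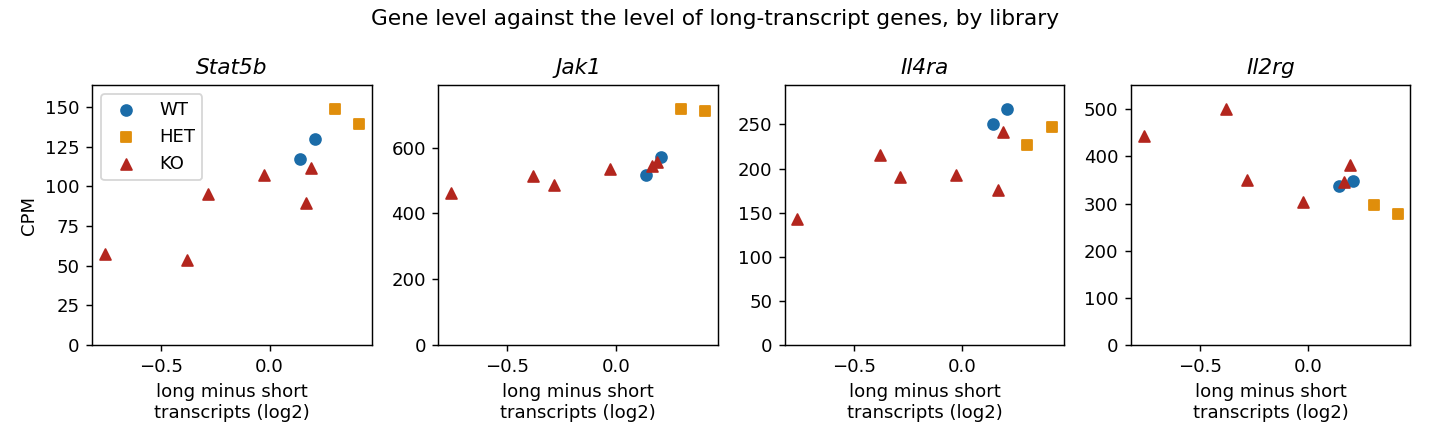
CPM (vertical axes, from 0) of Stat5b, Jak1, Il4ra and Il2rg against the log2 level of genes with long transcripts minus that of genes with short transcripts (horizontal axes), with 1 point per library by genotype. The 2 KO libraries at the left, at -0.76 and -0.38, have the lowest Stat5b values (57.1 and 53.4 CPM) and the highest Il2rg values (443 and 501 CPM).

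The rest of the pathway was described from 5 further lists. Of 20 partner receptor chains, 0 passed an unadjusted p of 0.05 in WT against KO or in WT plus HET against KO (2.19% and 6.3% of all genes), with median log2 fold changes of 0.20 and -0.15. The most abundant were Ifngr2, the second chain of the interferon gamma receptor, and Il10rb, the second chain of the IL-10 receptor. Ifngr2 was at 38.8 ± 0.359 TPM in WT, 35.5 ± 3.41 TPM in HET and 37.2 ± 6.11 TPM in KO. Il10rb was at 39.0 ± 0.311 TPM in WT, 16.0 ± 0.838 TPM in HET and 35.8 ± 14.0 TPM in KO (SD, n = 2, 2 and 6). The HET values of Il10rb lay below all KO values, which began at 22.1 TPM.

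Of the 6 other JAK and STAT genes, 6 had a positive log2 fold change of WT plus HET over KO (47.2% of all genes, or 64.8% on log2(TPM + 1)), with a median of 0.22, and 1 passed an unadjusted p of 0.05 (6.3% of all genes). Jak2, which pairs with JAK1 on the interferon gamma receptor, had the largest, at 0.54 (SE 0.178, edgeR adjusted p = 0.744). Jak2 was at 29.8 and 31.2 TPM in WT, 44.9 and 46.4 TPM in HET and 15.2 to 34.7 TPM in KO, so that only the HET libraries lay above KO. Its transcripts are also long (5030 bases).

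Of 18 inhibitors, 2 were higher and 1 was lower in WT plus HET than in KO at an unadjusted p under 0.05 (6.3% of all genes), with a median log2 fold change of 0.04. Sh2b3, an adaptor that restrains JAK signaling, had a log2 fold change of 0.31 (SE 0.113, edgeR adjusted p = 0.744), and Ptpn11, the phosphatase SHP2, one of 0.30 (SE 0.133, edgeR adjusted p = 0.744). Socs2, a feedback inhibitor that STAT5 induces, had one of -1.04 (SE 0.456, edgeR adjusted p = 0.744). Socs2 was at 3.75 and 4.03 TPM in WT, 3.83 and 4.47 TPM in HET and 3.20 to 11.99 TPM in KO, and the groups overlapped. The most abundant were Ptpn6, the phosphatase SHP1, and Ptpn1. Ptpn6 was at 920 ± 89.8 TPM in WT, 924 ± 9.25 TPM in HET and 836 ± 120 TPM in KO, with a log2 fold change of 0.02 (SE 0.0842). Ptpn1 had the same log2 fold change, 0.02 (SE 0.112).

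Ligand genes were close to the floor, and 5 of the 9 could be tested between WT plus HET and KO. Il15 was highest with a mean of 2.61 TPM. Il10, the ligand of IL-10R, was at 0.393 and 1.12 TPM in WT, 0.138 and 0.279 TPM in HET and 0.708 to 3.80 TPM in KO, with a log2 fold change of -2.18 (SE 0.73, edgeR adjusted p = 0.744). Il10 overlapped between WT and KO. The 9 ligands summed to 4.89 and 9.48 TPM in WT, 1.91 and 4.11 TPM in HET and 3.34 to 17.7 TPM in KO. Of 18 genes known as targets of these STATs, 0 passed an unadjusted p of 0.05 in WT against KO or WT plus HET against KO (2.19% and 6.3% of all genes), with median log2 fold changes of -0.02 and -0.09. Mcl1, a survival gene of the BCL2 family, was at 273 ± 7.10 TPM in WT, 249 ± 7.71 TPM in HET and 234 ± 44.6 TPM in KO, with a log2 fold change of 0.04 for WT plus HET over KO (SE 0.094).

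**Figure D5:**
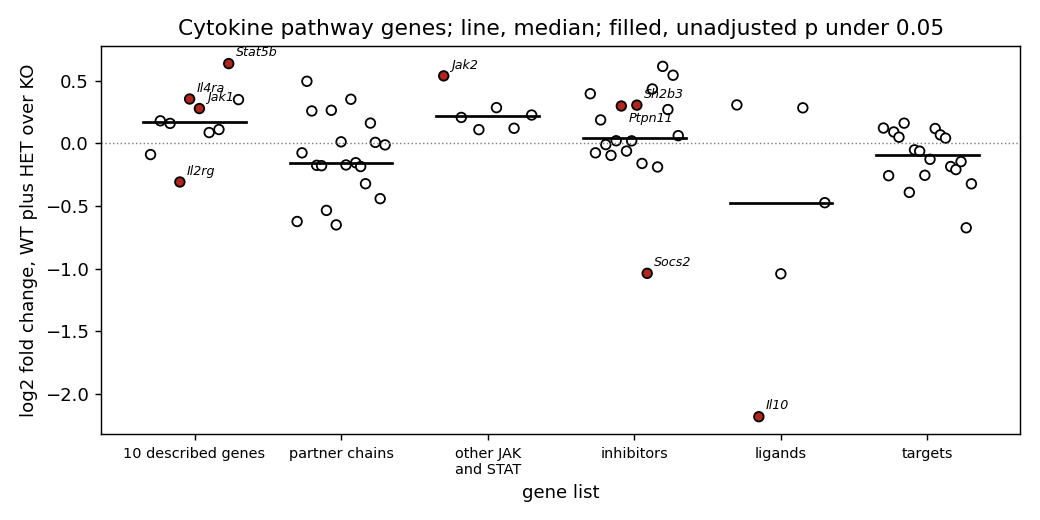
Log2 fold change of WT plus HET over KO (vertical) for each tested gene of the 6 lists (horizontal), with a line at each list's median. Filled points have an unadjusted p under 0.05 and are named, and the medians run from -0.47 for the ligands to 0.22 for the other JAK and STAT genes.

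Among 14353 other genes, those whose level followed Il21r most closely over the 10 libraries included Helq, a DNA helicase (Spearman's rho 0.988), Smarcc1, a subunit of the SWI/SNF chromatin remodeler (0.988), and Ncoa1, a nuclear receptor coactivator (0.976, tied with 1 gene not named). For Il4ra they included Gpd1l (0.976) and Kdm1b, a histone demethylase (0.964). The 2 neighbouring receptor genes had a rho of only 0.285 with each other. Il21r and Il2rg, the 2 chains of the IL-21 receptor, ran opposite in CPM, with a rho of -0.95. Il2rg ranked 14349 of 14353 in likeness to Il21r. In TPM, KO replicate 6 was also lowest for Il21r (153 TPM) and highest for Il2rg (430 TPM). KO replicate 1 had low Il21r (159 TPM), but its Il2rg (355 TPM) lay between the WT values (353 and 356 TPM). KO replicate 2 was highest for Il21r (274 TPM), with Il2rg at 370 TPM, above both WT libraries. No rho was computed in TPM. All rho values were taken on CPM, which is not scaled for transcript length. They describe 10 libraries that also differ together in the level of genes with long transcripts.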

How the data were processed

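Per the labels and the study's methods, RNA from sorted germinal center B cells was amplified with SMART-Seq v4, sequenced as paired-end reads and quantified with Salmon (0.9.1 in the submitters' processing notes, which also name DESeq2 2.11.40.6) against Gencode vM17 transcripts of GRCm38. For each transcript the authors deposited Salmon's estimated count, without normalization and not whole in 46.1% of values (within 0.001). Also deposited was its TPM, scaled for transcript length and library. Amplified reads carry no molecular identifiers, so depth covers counting error only, and a count of 0 allows up to 3 counts (0.0731 to 0.113 CPM).

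Both units were summed per gene identifier over 64019 transcripts, and estimated counts were rounded. The 10 genes were matched to identifiers by symbol. Genes were tested with edgeR 4.0.16 in R 4.3.3 (TMM, filterByExpr, quasi-likelihood, Benjamini-Hochberg over all genes tested, threshold 0.1 as in the study). WT against KO and WT plus HET against KO were fitted on their own libraries, and HET against KO and WT against HET on all 10 with a term per genotype. Standard errors come from the quasi-likelihood F. Levels between genes and transcript shares were compared by exact permutation tests of log2(TPM + 1) and of shares, in Python 3.11.15 with scipy 1.17.1. P-values measure the spread between mice, and no 2 libraries of a genotype agreed within sampling noise (chi-square per gene at least 27.8). Alternatives were DESeq2 1.42.0, limma 3.58.1 on log2(TPM + 1) and log2(TPM + 0.1), DESeq2's size factors, no filter, at least 10 counts in every library, length-scaled counts, a threshold of 0.05, other sample sets, the replicate block and each library left out.

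Positions, transcript classes and sequences come from the Gencode vM21 annotation of GRCm38, whose version differs from that of the quantification, and printed transcripts have the same identifier version and length in both. The genes and lists were chosen with earlier results of these data known. The text names all 10 genes, genes of the other lists with an unadjusted p under 0.05 in WT or WT plus HET against KO or among the 2 highest of a list, the 3 genes most like Il21r and Il4ra, and transcripts that lead or hold at least 20% of a gene's TPM, and exceptions are stated. A few genes that this rule takes in are not reported here. The lists of erythroid and plasma cell markers summed to 104 to 257 TPM and 1620 to 1998 TPM over all libraries.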

Additional observations from a re-analysis of the deposited data

Results flagged for a closer look

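Of 40 groups of values checked (the CPM and the leading transcript share of each of the 10 genes, in the 6 KO and the 4 control libraries), 1 held a library far from the others, where chance alone would give about 1 in 20. The leading Stat6 transcript held 98.3% of Stat6 TPM in ZBTB38 HET replicate 2 and 100% in each of the other 3 control libraries. The second Stat6 transcript was at 1.46 TPM in that library and at 0 in the other 3. With those 3 shares tied, the rate of 1 in 20 does not apply to this group.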

How the results depend on the processing

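With 2 libraries in a group the spread is estimated mainly from the KO libraries, and the 95% intervals of the 10 genes spanned 0.389 to 0.930 on the log2 scale for WT plus HET against KO. The number of the 10 genes called stayed at 0 under every alternative run for WT against KO and WT plus HET against KO. It became 1 (Jak1) in DESeq2 for HET against KO and for WT against HET, and 1 (Jak1) when only the libraries of the 2 groups were fitted for WT against HET. Over all genes, 1 was called in each comparison by the test reported, and DESeq2 called 6 for WT against KO, 18 for WT plus HET against KO, 458 for HET against KO and 125 for WT against HET. The fit of only the WT and HET libraries called 523, limma on log2(TPM + 0.1) called 3, 0, 6 and 5 in the 4 comparisons, log2(TPM + 1) called 0, 0, 1 and 1, and length-scaled counts called 0, 0, 1 and 1. No filter gave 2 for HET against KO, at least 10 counts in every library gave 0 for HET against KO and for WT against HET, a threshold of 0.05 gave 0 for WT against KO, 1 fit with a term per genotype gave 2 for WT against KO, and only the libraries of the 2 groups gave 0 for HET against KO. Leaving out 1 library gave 0 to 2 for WT against KO, 1 to 2 for WT plus HET against KO, 0 to 5 for HET against KO and 0 to 16 for WT against HET, the last without KO replicate 6. Without KO replicates 1 and 6, an alternative chosen after seeing the data, 2, 1 and 41 genes were called for WT, WT plus HET and HET against KO. On the TPM scale the median of all genes shifted to 0.107 with log2(TPM + 1) and 0.157 with log2(TPM + 0.1) for WT over KO, where 68.0% and 69.9% of genes were higher in WT beside 48.2% on the count scale. For WT plus HET over KO it shifted to 0.115 with log2(TPM + 0.1), and 64.8% and 65.7% were higher beside 47.2%. For HET over KO 55.8% and 57.3% were higher beside 43.7%.
Samples of one replicate number deviated together little (correlations from -0.018 to 0.110). The labels do not say what the number stands for, and whether it marks a shared litter or batch was not tested. With the number as a replicate block, 6, 0, 4 and 66 genes were called in the 4 comparisons and none of the 10. WT and HET have only replicates 1 and 2, so KO replicates 3 to 6 were each alone in a block. The fold changes over KO in this fit thus rest on KO replicates 1 and 2 only. For WT plus HET over KO, the log2 fold changes were then 0.63 for Il4ra and 0.87 for Stat5b.
The sign of 24 log2 fold changes and 15 transcript share differences changed, none of them called. On log2(TPM + 1) and log2(TPM + 0.1), Ifngr1 became 0.0010 and 0.0011 for WT over KO, 0.050 and 0.051 for WT plus HET over KO, and 0.0999 and 0.101 for HET over KO, Stat3 became 0.0855 and 0.0868 for WT over KO, and Il10ra became 0.0579 and 0.0649 for HET over KO. With the replicate block, where KO stands for replicates 1 and 2 only, Jak3 became -0.0496, -0.0575 and -0.0629 for WT, WT plus HET and HET over KO. In the same fit, Il10ra became 0.276 and Ifngr1 0.0398 for HET over KO. Without KO replicates 1 and 6, Il21r became -0.0086 for WT over KO, Jak3 -0.0105 for HET over KO, and the share difference of Ifngr1 0.0400 percentage points. With 1 library left out, the log2 fold change ranged from -0.0010 to 0.127 for Jak1 and from -0.163 to 0.0334 for Stat3 (WT over KO), from -0.210 to 0.0394 for Il10ra (HET over KO), and from -0.0728 to 0.0946 for Jak3 and -0.0936 to 0.165 for Stat6 (WT over HET). The share difference of controls minus KO then ranged from -1.14 to 0.924 percentage points for Il21r, -2.20 to 0.472 for Il4ra, -0.939 to 0.132 for Stat3 and -2.68 to 2.53 for Stat5b, and with WT against KO only it was 0.189 for Il21r, 0.722 for Il4ra and 1.16 for Il10ra. The cause of these changes was not tested.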

Other observations

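Partner receptor chains tended to have their lowest values in the 2 ZBTB38 HET libraries. Of the 20 chains tested, 6 were lower in HET than in KO at an unadjusted edgeR p under 0.05 and 0 were higher, beside 10.2% of all genes in either direction, and 5 of the 6 were also lower in HET than in WT. None passed after Benjamini-Hochberg adjustment, with adjusted p-values of 0.322 to 0.476 against KO in edgeR's quasi-likelihood test. Il10rb was at 38.8 and 39.2 TPM in WT, 15.4 and 16.6 TPM in HET and 22.1 to 56.0 TPM in KO, with a log2 fold change of HET over KO of -1.27 (SE 0.346). Ifnar2, a chain of the type I interferon receptor, was at 32.6 and 33.4 TPM in WT, 10.7 and 12.2 TPM in HET and 16.6 to 39.0 TPM in KO, with a log2 fold change of -0.98 (SE 0.301). For both genes the HET libraries lay below all others. The other 4 were Il2rb, Il5ra, Il27ra and Crlf2, with log2 fold changes of -1.42, -1.02, -1.19 and -1.05. T cell, myeloid and naive B cell markers were also lowest on average in HET, with median log2 fold changes of HET over KO of -1.06 over 15 genes, -1.70 over 10 genes and -1.21 over 8 genes, and their part in the receptor values was not tested. The 2 groups compared also differ in the Y-linked genes in part of the libraries. These genes were named after their values were seen.
Jak2 had its highest values in HET, as did Jak1. It had a log2 fold change of 0.81 for HET over KO (SE 0.178, edgeR adjusted p = 0.255) and -0.61 for WT over HET (SE 0.228, edgeR adjusted p = 0.716). Ccnd2, a cyclin gene that STAT5 is known to activate, was at 98.9 and 110 TPM in WT, 34.4 and 36.8 TPM in HET and 45.4 to 114 TPM in KO. Its log2 fold change of HET over KO was -1.41 (SE 0.397, edgeR adjusted p = 0.333). Of the 18 targets tested, 1 was lower and 0 were higher in HET than in KO at an unadjusted edgeR p under 0.05, beside 10.2% of all genes.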
